A study of Homo sapiens with 3 samples.

Results

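To describe the occupancy of genes that define the renal proximal tubule, HA-PRCC-TFE3 ChIP-seq peaks were collected at 8 transporter and uptake genes, LRP2, CUBN, SLC34A1, SLC5A2, SLC22A6, SLC22A8, SLC9A3 and AQP1. A peak was a member if it lay in one of these genes or within 10 kb of it on hg19. Peaks of both ChIP replicates that overlapped were merged into regions, and a region with a peak in each replicate is called shared. The genes held 47 of the 117702 regions of the series, formed from 45 narrowPeak peaks of replicate 1 (of 109205) and 35 of replicate 2 (of 81300). The cells were HK-2, an established human proximal tubule line, carrying a doxycycline-inducible HA-PRCC-TFE3 construct. All of them received 0.2 µg/mL doxycycline for 24 h. The samples were 2 ChIP libraries pulled down through the HA tag and 1 input DNA library, with an estimated 12235754 and 7418533 ChIP tags. Uninduced cells, a pull-down without the tag and the expression of these genes were not analysed here, so HK-2 identity was not checked against markers and occupancy could not be compared with expression.

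PRCC-TFE3 is an oncogenic fusion that keeps the DNA-binding part of TFE3, a transcription factor that recognises E-box sequences, and drives a subtype of renal cell carcinoma. The proximal tubule recovers most of the filtered protein, glucose, phosphate, salt and water. LRP2 encodes megalin and CUBN encodes cubilin, endocytic receptors that act together in the uptake of filtered proteins. SLC34A1 and SLC5A2 encode the sodium-coupled phosphate and glucose carriers of the brush border. SLC22A6 and SLC22A8 encode basolateral carriers of organic anions. SLC9A3 encodes the apical sodium-proton exchanger, and AQP1 encodes a water channel.

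Of the 8 genes, 6 had at least 1 shared region and 2, SLC22A6 and SLC22A8, had no peak in either replicate. For comparison, chromosomes 1 to 22 and X were cut into tiles as long as the window of each gene. Between 35.1% (length of the SLC5A2 window) and 82.9% (CUBN) of these tiles had at least 1 shared region. CUBN held 20 of the 32 shared regions (62.5%) and SLC34A1 held 7. SLC5A2 had 2, and LRP2, SLC9A3 and AQP1 had 1 each. No gene had a region within 1 kb of its start site, and only 5.2% of tiles of that length had a shared region. Regions were ranked by the lower of the fold enrichments of both replicates, called the lower-of-both fold, and by it the strongest were downstream of CUBN and inside SLC5A2. Input DNA, the only background, had 0 of its 286 peaks at these genes. With so few input peaks over the genome, a count of 0 in these windows says little. Of the 47 regions, 32 (68.1%) were shared, compared with 59.8% of all regions, while 13 had a peak in replicate 1 only and 2 in replicate 2 only. The median fold enrichment of the peaks in replicate 1 only was 5.35, whereas replicate 1 had a median of 9.15 at the shared regions.

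**Figure D1:**
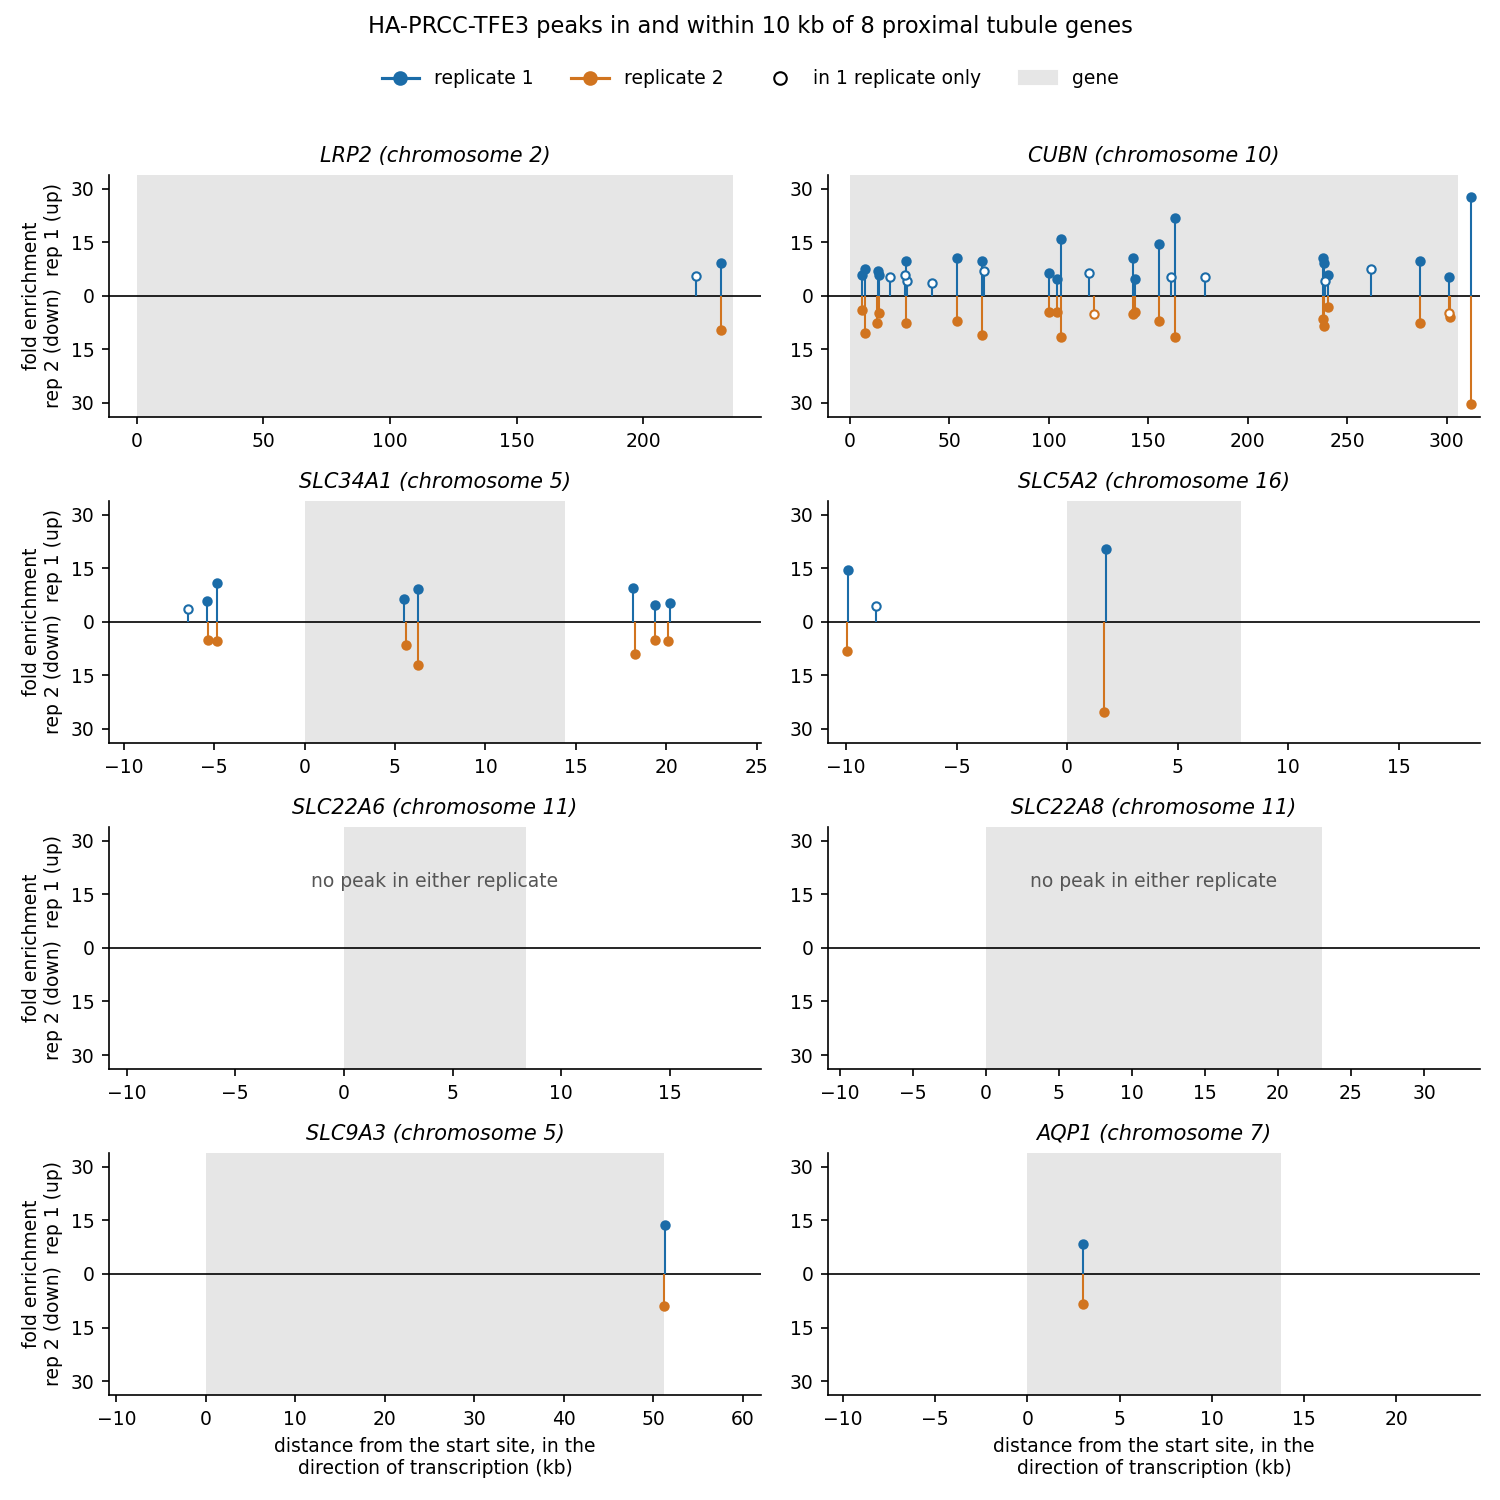
Fold enrichment of each HA-PRCC-TFE3 narrowPeak region (y axis, ratio given by the peak caller, replicate 1 upwards and replicate 2 downwards) against the distance of its summit from the start site of the gene (x axis, kb in the direction of transcription). Filled points are shared regions, open points are regions of 1 replicate and grey marks the gene. CUBN has separate regions in each part of the gene, with a longest stretch of 74.1 kb without a shared region, and SLC22A6 and SLC22A8 are empty. In replicate 2 the highest stems are downstream of CUBN (30.2) and inside SLC5A2 (25.3). In replicate 1 a region inside CUBN (21.9) is above that of SLC5A2 (20.5).

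The start sites were examined first. Within 1 kb on either side, no narrowPeak or BED peak of either replicate was present at any of the 8 genes. Cut into tiles of that length, chromosomes 1 to 22 and X had at least 1 shared region in 5.2% of tiles. Empty windows of this length were therefore common. Within 5 kb, 3 genes had a shared region, namely SLC34A1, SLC5A2 and AQP1, compared with 17.8% of tiles. The tiles are not start sites, and the share of other start sites with a shared region was not counted. The shared region nearest to a start site was 1.7 kb into SLC5A2 and 3.0 kb into AQP1. It was 4.8 kb before the start of SLC34A1 and 6.2 kb into CUBN. For SLC9A3 it was 51.3 kb away, at the far end of the gene. For SLC22A6 and SLC22A8 the nearest shared region lay 78.8 kb and 109.7 kb downstream of the start, and for LRP2 it lay 117.0 kb upstream, outside the window of that gene.

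The promoter sequences of 7 of the 8 genes were matched in RefSeq (GRCh38.p14, 250 bases before to 50 after the start), and SLC22A8 was not matched. None of the 7 contained CACGTG, a palindromic E-box that TFE3 binds, on either strand, compared with 7.26% of all 35116 promoters. None contained CATGTG, a related E-box, compared with 11.1%. The general E-box CANNTG, which includes both, was found in 2 of the 7 (CUBN and SLC22A6) and in 68.7% of all promoters. TGANTCA, a relaxed AP-1 pattern that allows any middle base, was found in SLC5A2, as TGATTCA, and in 7.71% of all promoters. A stricter AP-1 motif was not counted. The promoters of 3 genes are shown because CUBN had the most regions, LRP2 the lowest density of the genes with a shared region, and SLC5A2 the region nearest to a start. They lie on GRCh38.p14 at chr2:169362485-169362784 on the minus strand (LRP2), chr10:17129762-17130061 on the minus strand (CUBN) and chr16:31482873-31483172 on the plus strand (SLC5A2). Each is written 5′ to 3′ on the strand of the gene, and capitals mark CANNTG in CUBN and TGANTCA in SLC5A2.
LRP2: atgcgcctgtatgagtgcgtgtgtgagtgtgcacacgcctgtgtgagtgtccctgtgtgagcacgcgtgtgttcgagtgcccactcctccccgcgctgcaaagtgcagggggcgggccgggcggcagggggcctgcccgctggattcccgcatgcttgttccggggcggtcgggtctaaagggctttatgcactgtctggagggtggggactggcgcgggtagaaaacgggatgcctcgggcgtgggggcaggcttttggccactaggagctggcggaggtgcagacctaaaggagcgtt
CUBN: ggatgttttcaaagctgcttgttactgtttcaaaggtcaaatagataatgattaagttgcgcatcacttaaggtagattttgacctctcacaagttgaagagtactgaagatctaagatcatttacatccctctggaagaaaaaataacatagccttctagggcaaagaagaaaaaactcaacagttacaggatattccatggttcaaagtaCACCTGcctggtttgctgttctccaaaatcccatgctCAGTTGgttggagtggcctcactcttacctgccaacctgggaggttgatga
SLC5A2: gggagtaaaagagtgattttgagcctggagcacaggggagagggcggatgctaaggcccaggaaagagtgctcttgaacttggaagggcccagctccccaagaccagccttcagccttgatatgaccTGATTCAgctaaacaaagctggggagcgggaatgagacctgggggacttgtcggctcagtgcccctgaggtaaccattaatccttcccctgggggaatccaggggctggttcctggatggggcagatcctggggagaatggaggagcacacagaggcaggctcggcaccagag
LRP2 had none of the 4 motifs and a GC content of 65.3%, whereas CUBN had 40.7% and SLC5A2 58.0%, against a median of 58.7% over all promoters. With no peak within 1 kb of the hg19 start sites, the motifs are a description of the sequence alone. The sequence under the peaks was not examined, because no hg19 genome was used.

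The number of regions was then set against the length of each window. On chromosomes 1 to 22 and X there were 23.9 shared regions per Mb. SLC34A1 had 203.0 per Mb, SLC5A2 71.8 and CUBN 61.4. AQP1 had 29.7, SLC9A3 14.0 and LRP2 3.91. The densities of SLC5A2, AQP1, SLC9A3 and LRP2 rest on 1 or 2 regions each. The windows include the flanks, where a region may lie in a neighbouring gene, and this was not examined. The tiles used for comparison cover genes and the space between genes alike.

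**Figure D2:**
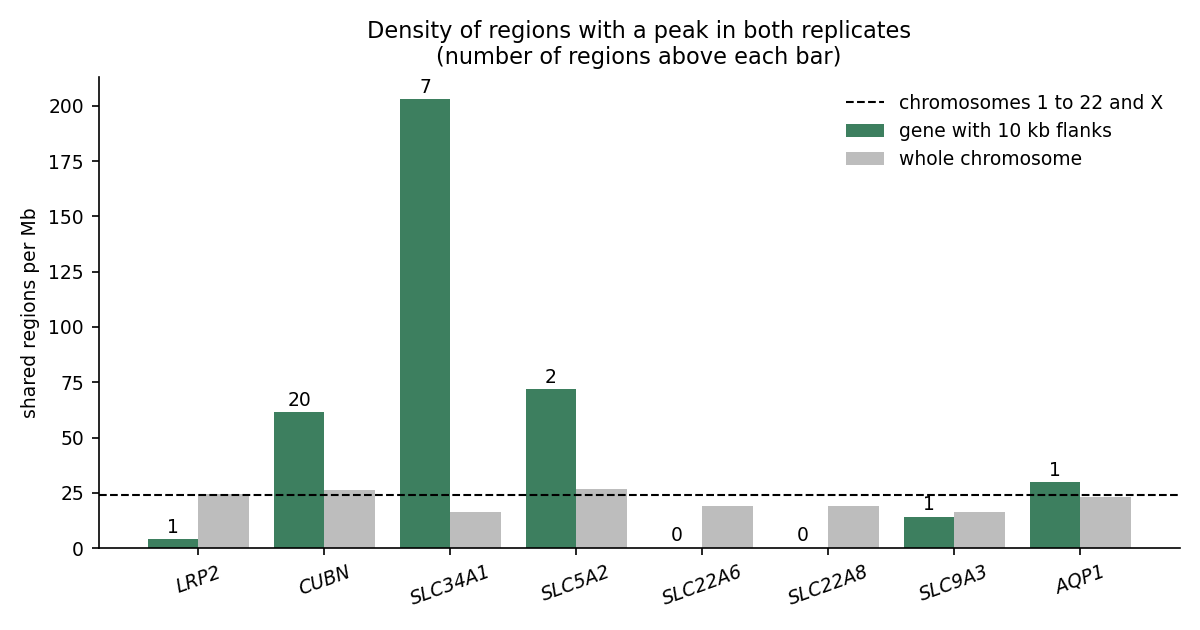
Shared regions per Mb (y axis) in the window of each gene, green, and over the whole of its chromosome, grey, with the number of regions in the window printed above each bar and the density over chromosomes 1 to 22 and X as a dashed line. SLC34A1 reaches 203.0 per Mb, CUBN 61.4 and LRP2 3.91, against 23.9 over the genome.

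Among the endocytic receptors, CUBN had the most regions of all 8 genes. The gene lies on the minus strand of chromosome 10 from 16865965 to 17171816. Its window held 30 replicate 1 peaks and 22 replicate 2 peaks in 32 regions. Of these, 20 were shared, 10 were found in replicate 1 only (fold enrichment 3.74 to 7.49) and 2 in replicate 2 only (4.81 and 5.13). At least 20 shared regions were present in 9.64% of tiles as long as this window, and the median tile had 5. Chromosome 10 as a whole had 26.1 shared regions per Mb.

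The shared regions were spread along the gene. When CUBN was divided into 3 equal parts of 102 kb, the part next to the start held 8 shared regions, the middle part 6 and the last part 5. The remaining region was downstream of the gene. The median distance between neighbours was 10.7 kb and the shortest was 546 bp, and 4 neighbouring pairs were within 2 kb of each other. The longest stretch without a shared region was 74.1 kb, from 164 to 238 kb after the start.

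The strongest region of the window, and of all 8 genes, lay outside CUBN, 6.0 kb beyond its 3′ end. It ran from 16859341 to 16859989, and its fold enrichment was 27.8 in replicate 1 and 30.2 in replicate 2. Only 1.01% of shared regions had a lower-of-both fold as high as this. The BED window there contained 54 tags of replicate 1 (exact 95% Poisson interval, 40.6 to 70.5) and 46 of replicate 2 (33.7 to 61.4). Input DNA had 0 tags in the replicate 1 window and 1 in that of replicate 2. The next protein-coding gene on this side is RSU1 in RefSeq (GRCh38.p14), and whether the region belongs to CUBN or to its neighbour was not tested. The place of RSU1 on hg19 was not examined, so the region may lie in RSU1 or at its start.

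The regions inside CUBN were weaker. The median of their lower-of-both fold was 6.95 and the highest was 11.6, compared with a median of 7.65 over all 70426 shared regions. That value was found at 2 regions. The first, from 17007822 to 17008591 and 163.7 kb after the start, had a fold enrichment of 21.9 in replicate 1 and 11.6 in replicate 2, with 46 and 18 tags and 0 input tags. The other, from 17065384 to 17065753, had fold enrichments of 16.0 and 11.6 with 32 and 17 tags and 1 input tag in each window. A region from 17105162 to 17105596 was closer between the replicates, at 9.63 and 10.9, with 17 and 16 tags. The region nearest to the start, from 17165479 to 17165682, was among the weakest, with 5.88 and 3.85. In the BED list of replicate 1 it had 9 tags, and in that of replicate 2 it was not listed. Of the 20 shared regions, 15 had the higher fold enrichment in replicate 1, as had 72.6% of all shared regions, so that this count was near the background.

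In contrast to CUBN, LRP2 had few regions. It lies on the minus strand of chromosome 2 from 169983619 to 170219122, and its window held 2 replicate 1 peaks and 1 replicate 2 peak. The only shared region ran from 169988416 to 169988744, close to the 3′ end of the gene and 230.5 kb after its start. Its fold enrichment was 9.21 in replicate 1 and 9.54 in replicate 2, with 20 and 15 tags and 0 and 1 input tags. The other region, 220.7 kb after the start, had a replicate 1 peak of 5.68 alone. Of tiles as long as this window, 79.2% had at least 1 shared region and 32.0% had no more than 1, while the median tile had 4. From position 169988745 to 170335861 no shared region was present, a stretch of 347 kb that included the start site and in which replicate 1 had 1 peak and replicate 2 had 0. Of all 70365 stretches between neighbouring shared regions, 1.58% were at least as long. This is a share of stretches, and it is not how often a gene lies in a stretch of that length.

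Among the sodium-coupled carriers, SLC34A1 had the densest regions. It lies on the plus strand of chromosome 5 from 176811432 to 176825849, and each replicate had 8 peaks in the window. These formed 8 regions, 7 of them shared, and at least 7 were present in 0.838% of tiles of the same length. Only 4 of the 7 were left when both replicates had to have q below 1e-05, and also 4 when the summits had to lie within 100 bp, so that this count and the density of 203.0 per Mb depend on how a shared region is defined. They fell into 3 places, with 2 before the start, 2 inside the gene and 3 beyond its end. Chromosome 5 had 16.5 shared regions per Mb.

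By the lower-of-both fold the strongest was inside the gene, 6.3 kb after the start, from 176817557 to 176817844. Its fold enrichment was 9.09 in replicate 1 and 12.2 in replicate 2, with 16 and 18 tags and 0 input tags in both windows. In replicate 1 alone, the 2 regions described next were higher. The region nearest to the start was 4.8 kb upstream of it, from 176806406 to 176806749. There the values lay further apart, with 11 and 5.41 and with 23 and 8 tags, but the tag split did not pass the exact binomial test (unadjusted p = 0.142, adjusted p = 1.0). The region 18.2 kb after the start, from 176829528 to 176830041, had 9.63 and 8.98. It lay 3.7 kb beyond the end of SLC34A1, on the side where PFN3 is the next gene in RefSeq. Whether the regions beyond the end lie in PFN3 or a further gene was not examined, as no hg19 annotation was used. A second region inside SLC34A1, from 176816307 to 176817197, had 6.42 in both replicates and was formed from 1 peak of replicate 1 and 2 of replicate 2. The region from 176831288 to 176831674 had 5.28 and 5.31. The other 2 shared regions had fold enrichments from 4.82 to 5.88. None of the 7 reached a fold enrichment of 10 in both replicates.

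SLC5A2 had fewer regions, 1 of which was stronger in both replicates than any at SLC34A1. It lies on the plus strand of chromosome 16 from 31494323 to 31502181, and its window held 3 replicate 1 peaks and 2 replicate 2 peaks. At least 2 shared regions were present in 16.8% of tiles of this length. The region inside the gene, from 31495714 to 31496522 and 1.7 kb after the start, was enriched 20.5-fold in replicate 1 and 25.3-fold in replicate 2. As high a lower-of-both fold was found in 4.62% of shared regions. Both replicates had 47 tags here (exact 95% Poisson interval, 34.5 to 62.5), and input DNA had 0 in both windows. Per 10000000 tags of the library this was 38.4 in replicate 1 and 63.4 in replicate 2.

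The other shared region in the SLC5A2 window, from 31484051 to 31484533, lay across the 10 kb limit upstream. It had fold enrichments of 14.4 and 8.28, with 40 and 21 tags. Input DNA had 3 tags in each window, the most at any of the genes. On that side TGFB1I1 is the next gene in RefSeq. The region in replicate 1 only was 8.6 kb upstream of SLC5A2, with a fold enrichment of 4.44. Whether the upstream regions lie inside TGFB1I1 was not examined, as no hg19 annotation was used.

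The organic anion carriers had no peaks. SLC22A6 lies on chromosome 11 from 62744063 to 62752429 and SLC22A8 from 62760295 to 62783313, both on the minus strand, and their windows share 12.1 kb. Neither the narrowPeak nor the BED list of either replicate had a peak there. Of tiles as long as the SLC22A6 window, 64.5% had no shared region, and of those as long as the SLC22A8 window, 55.6%, so that empty windows of this length were common. The stretch without a shared region around them was longer than the windows. It ran for 573 kb from 62673778 to 63246340, with 3 replicate 1 peaks and 0 replicate 2 peaks in it. Of all stretches, 0.712% were at least as long, and the median stretch was 12.3 kb. This share counts stretches and not bases. Long stretches hold more of the genome, so a given gene lies in such a stretch more often than that share. The lists hold only peaks that passed the cutoffs of the callers. In the BED lists the lowest tag numbers over the genome were 7 in replicate 1 and 6 in replicate 2, while the narrowPeak lists give no tag numbers. Occupancy below the cutoffs was not detectable here.

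The ion exchanger and the water channel had 1 region each. SLC9A3 lies on the minus strand of chromosome 5 from 473334 to 524549. Its region, from 473048 to 473471, crossed the 3′ end of the gene, and was enriched 13.8-fold in replicate 1 and 8.98-fold in replicate 2, with 28 and 14 tags. The summits of the replicates were 130 bp apart. The gene is 51216 bp long in these coordinates and 53994 bp in RefSeq (GRCh38.p14), so its end depends on the annotation. The following 184 kb, which included the start site, had no shared region and 2 replicate 1 peaks. By number, and not by the bases they hold, 3.87% of stretches were at least as long. At least 1 shared region was present in 55.3% of tiles as long as the SLC9A3 window.

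AQP1 lies on the plus strand of chromosome 7 from 30951415 to 30965131. Its region was inside the gene, 3.0 kb after the start, from 30954298 to 30954588. The replicates gave nearly the same fold enrichment, 8.48 and 8.28, with 15 and 12 tags and 2 input tags in each window. At least 1 shared region was present in 39.1% of tiles of this length.

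The 32 shared regions were next compared with all shared regions of the series. The median of their lower-of-both fold was 7.06 (quartiles, 5.13 and 8.98), compared with 7.65 (5.70 and 11.4) over all shared regions. The lower median rested on CUBN, which held 20 of the 32 regions. Without CUBN the median was 8.28, above that over all shared regions. The comparisons that follow were not repeated without CUBN. A value of at least 10 was reached by 4 of them (12.5%), compared with 32% of all shared regions. These were 3 regions of the CUBN window and the region inside SLC5A2. Their widths were similar, with medians of 367 bp and 370 bp. The summits of both replicates were within 100 bp of each other in 25 of the 32 (78.1%), compared with 92.1% of all, and the median distances were 36 bp and 31 bp. Both replicates had q below 1e-05 in 22 of the 32 (68.8%), compared with 81.3% of all. These are descriptions, and whether the genes differed from the rest of the genome was not tested.

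**Figure D3:**
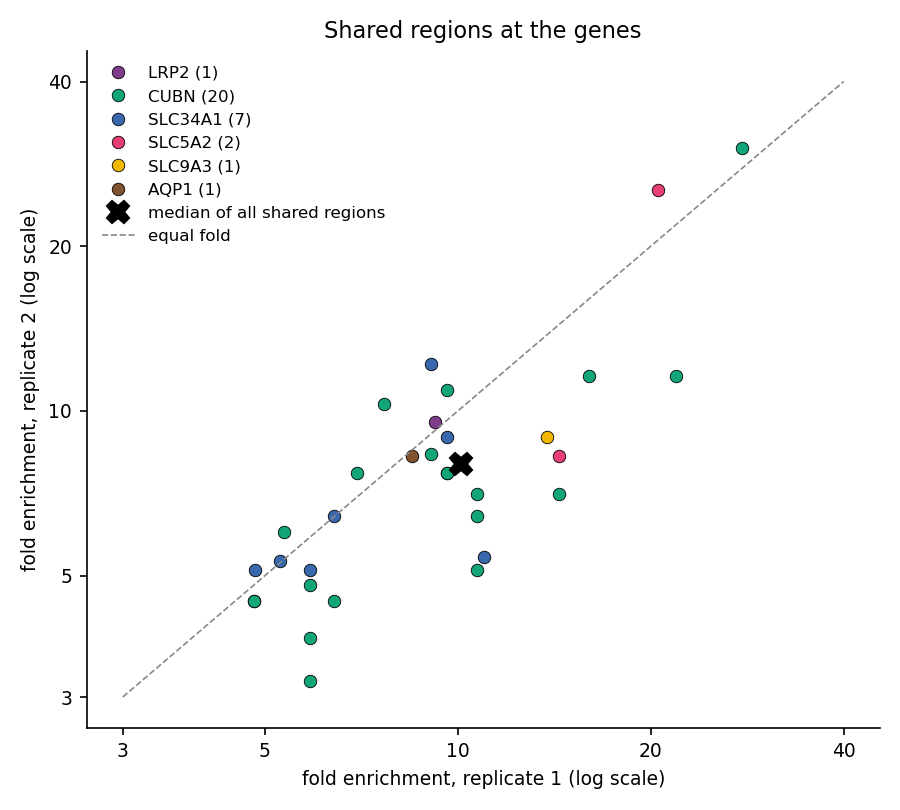
Fold enrichment of the 32 shared regions in replicate 1 (x axis) and replicate 2 (y axis), both on log scales, coloured by gene with the number of regions in brackets. The cross marks the medians over all shared regions, 10.1 and 7.99, the dashed line marks equal fold, and 2 pairs of CUBN regions with identical values lie on top of each other. The region downstream of CUBN and the one inside SLC5A2 stand above the others in replicate 2.

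Finally, the replicates were compared by their tags. A total of 24 BED windows at the genes were matched between the replicates, with 535 tags of replicate 1 and 367 of replicate 2. The share of replicate 2 was 40.7% (exact 95% Clopper-Pearson interval, 37.5% to 44.0%), compared with 39.8% over all 55655 matched windows. Window by window it ranged from 25.7% to 52.9%. In a two-sided exact binomial test against the share over all matched windows, 0 of the 24 windows passed an adjusted p of 0.05, as did 0% of all matched windows. At an unadjusted p of 0.05, 1 of the 24 was past the threshold, compared with 2.2% of all. This was the window inside SLC5A2, where both replicates had 47 tags (share of replicate 2, 39.5% to 60.5%, unadjusted exact p = 0.0458, adjusted p = 1.0). For the CUBN window 163.7 kb after the start the share was 28.1% (17.6% to 40.8%, unadjusted exact p = 0.0564). No difference between the replicates at a single window passed the correction, and the intervals show how wide a difference these tag numbers leave possible. Windows were matched only if listed in both replicates, so lopsided splits were largely left out before the test. The 0 calls therefore cannot show that the replicates agree. Input tags were sparse, with at most 3 per window, and averaged 0.486 over the 35 BED windows of replicate 1 at the genes and 0.560 over the 25 of replicate 2, against 0.874 and 0.876 over all windows. The intervals cover counting error only.

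**Figure D4:**
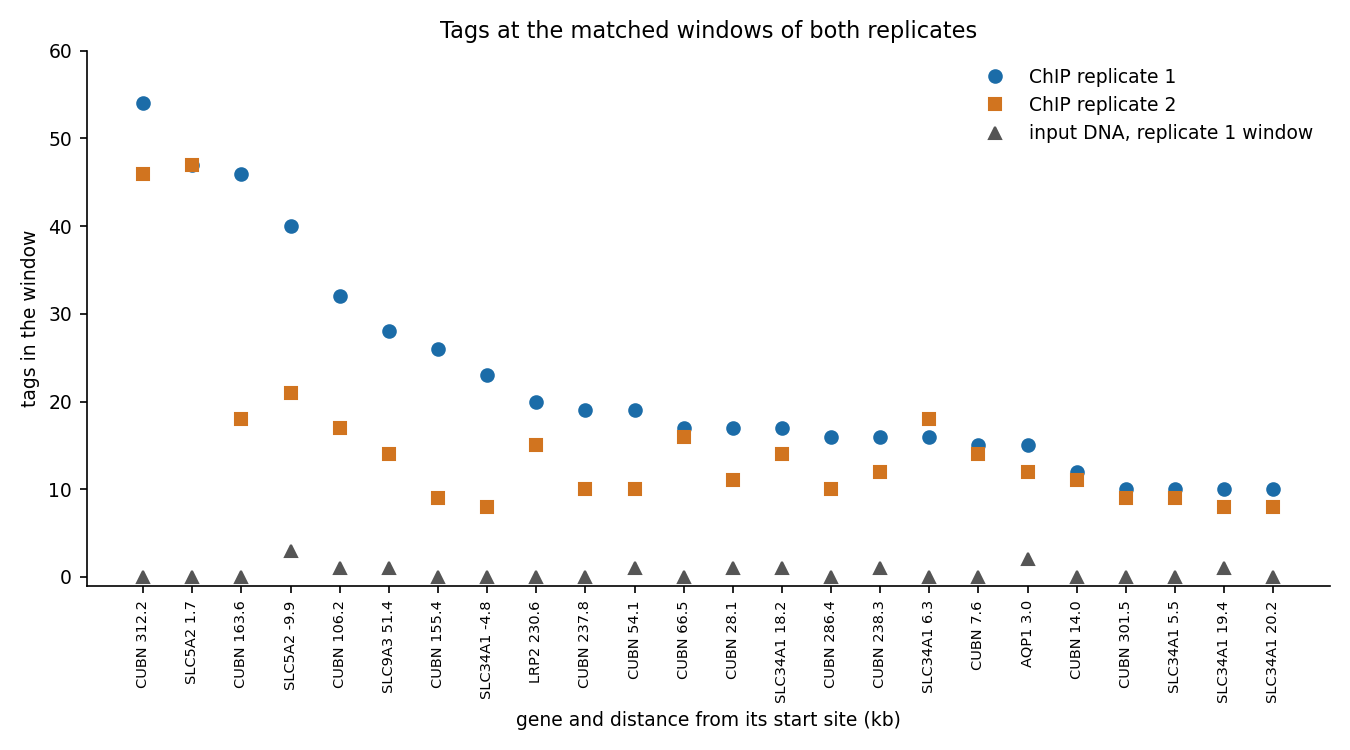
Tags in each of the 24 matched BED windows (y axis) in replicate 1 (circles), replicate 2 (squares) and input DNA (triangles, window of replicate 1), ordered by the tags of replicate 1 and labelled with the gene and the distance from its start site in kb (x axis). The counts are not scaled to library size. Replicate 1 ranges from 10 to 54 tags and replicate 2 from 8 to 47, while input DNA has at most 3.

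The 10 kb limit decided which neighbours were counted. Apart from the SLC5A2 region that lay across it, the shared region closest to the limit from within was that downstream of CUBN, at 3.38 kb. The nearest shared regions outside were 2.19 kb beyond the downstream limit of SLC5A2 (fold enrichments 5.63 and 6.82), 3.39 kb beyond the upstream limit of SLC34A1 (12.8 and 7.70) and 3.83 kb beyond the downstream limit of SLC9A3 (12.8 and 9.63). Without any flank the 8 genes kept 25 shared regions, of which 19 were in CUBN.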

How the data were processed

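ChIP-seq peaks were analysed for 2 HA-PRCC-TFE3 ChIP samples and 1 input DNA sample, grouped by their labels. Crosslinked chromatin had been cut with micrococcal nuclease, which can favour accessible DNA. The authors called peaks for each sample separately, on hg19 per the labels. The methods name MACS in Strand NGS with input as the comparison and a p-value threshold that they call stringent. Whether the deposited lists were cut at that threshold was not examined. The aligner is not given in the sources used here. In the deposited narrowPeak lists each peak carries a fold enrichment ratio, −log10 p and q values, and a score of 10 times −log10 q, with a lowest −log10 q of 1.31 in replicate 1 and 1.35 in replicate 2. The deposited BED lists follow the column order of a HOMER table under displaced headers, so columns were read by position. They hold a score, a tag count, a signal in tags per 10000000, a signal of scaled input tags, fold ratios and p-values, all made by the authors.

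Library totals were taken as summed tags over summed signal. The input tags of a window were derived by dividing its tags by its deposited ratio to input and scaling to whole tags. Windows with at least 1 input tag gave whole values within 5% in 100.0% of cases, and the remaining windows held a fixed value of 0.5 tags, which was read as 0. Gene coordinates were those that defined the genes, on hg19. An overlap of 1 bp or more joined peaks into a region. The lower-of-both fold is the lower of the replicates' fold enrichments. Tiles and stretches run from the first to the last peak of chromosomes 1 to 22 and X. Tag splits were tested with an exact binomial test, adjusted by Benjamini-Hochberg over all matched windows and tested on simulated data. The simulation placed large changes only in windows with many tags. It does not show what the test detects at most windows of these genes, which hold fewer. Enrichment itself was not tested, since the lists hold only enriched peaks. The libraries are single samples, so p-values reflect counting error alone. Python 3.11.15 and SciPy 1.17.1 were used. All 8 genes are named, each with its strongest region, that nearest to its start and up to 3 more. The genes and lists were chosen with earlier results of these data known.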

Additional observations from a re-analysis of the deposited data

How the results depend on the processing

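Among 36 values under other settings, 29 moved by less than their tolerance (a factor of 1.5 for counts, and the spread of the replicate medians for the fold) and 7 by more. A flank of 50 kb raised the shared regions from 32 to 55, the replicate 1 peaks from 45 to 82 and the replicate 2 peaks from 35 to 60. With q below 1e-05, 22 replicate 2 peaks were left. Widening the start window to 5 kb raised the genes with a shared region there from 0 to 3. The median fold of the shared regions was 45.3 with the BED fold over input, which is another quantity with a median of 46.1 over all shared BED regions. Most of these ratios at the genes were set by the 0.5 tags that stand for 0 input tags (65.7% and 56.0% of windows), so this median is not a measured fold. With the fold of 1 replicate in place of the lower-of-both fold, the median over the same 32 shared regions was 9.15 (replicate 1) and 7.38 (replicate 2). These regions still needed a peak in both replicates. The median lower-of-both fold was 8.28 without CUBN, an alternative chosen after the data were seen, and 7.65 over all shared regions of the series. Leaving out a replicate gave 35 to 45 regions and 0 genes with a peak at the start site. The number of genes with a shared region was 6 under each alternative except summits within 100 bp, where SLC9A3 was lost and 5 remained.

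SLC22A6 and SLC22A8 had 0 shared regions under every alternative, the 50 kb flank included. In CUBN the number ranged from 13 (BED lists, and q below 1e-05) to 20. In SLC34A1 it fell from 7 to 4 with q below 1e-05 and with summits within 100 bp, and to 2 without flanks, and it was 14 with 50 kb. The tag split, tested only at windows listed in both replicates, gave 0 calls with all 3 expected shares. The planned comparison with other proximal tubule genes was not run, because it needs an annotation on hg19, and the position of regions in exons or introns was not analysed for the same reason. No paired analysis was possible because only the ChIP samples are numbered, and no test compared them with input DNA. With 7418533 tags in replicate 2, a replicate 1 peak missing from its list cannot be taken as absent there.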
